A study of Drosophila melanogaster with 2 samples.

Results

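The chromosome 4 peaks of the chromatin-binding protein Psq numbered 473 of the 30000 peaks in the authors' list from both replicates pooled, named the pooled list here. They were chosen by position alone, as every pooled peak on chromosome 4 of the assembly dm6. Of the 473, 9 were also among the 2999 peaks of the authors' list thresholded by the irreproducible discovery rate (IDR), a measure of how well peak ranks repeat between replicates, and 232 were overlapped by at least 1 bp in the separate lists of both replicates. Psq was mapped by chromatin immunoprecipitation and sequencing in whole Drosophila melanogaster embryos aged 0 to 24 hours, with males and females pooled. The flies were a transgenic line, psq-GFP, that stably expresses Psq fused at its C terminus to GFP, and an antibody to GFP was used for the precipitation. There was 1 group with no treatment named and 2 biological replicates, numbered 3 and 4, and no second condition, so nothing was tested between groups. The profile is that of a tagged protein in 1 line, averaged over the tissues, ages and sexes of an embryo collection, and fewer cells with a bound site cannot be told apart from weaker binding in each cell.

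Psq (pipsqueak) is a DNA-binding protein with a BTB domain and repeated Psq motifs, known to bind GAGA-type repeats and to be linked to Polycomb complexes and the GAGA factor Trl. Chromosome 4, the dot chromosome of the fly, is small and rich in transposon remnants. Its gene-bearing arm is coated with the heterochromatin protein HP1a and with the protein POF, yet most of its genes are expressed.

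In the dm6 sequence, chromosome 4 is 1348131 bp long, 1.01% of the 6 chromosome arms. Its GC content was 34.8%, against 41.4% to 42.6% on the other 5 arms. Annotated transposons covered 24.8% of it, against 4.06% to 7.74%. It carries 80 protein-coding genes. Sequencing depth is unknown, since the files hold peaks and no read totals. Intervals below are 95% Wilson intervals of a share and cover counting error only. Neighbouring peaks share a chromosome and often a gene, so they are not replicates.

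The sequences at the strongest chromosome 4 summits show how differently these sites read. Capitals mark matches to the repeat-type motifs searched, GAGAG and CACACA, on either strand, so CTCTC stands for GAGAG on the minus strand. In the same way, TGTGTG stands for CACACA. The first 3 sequences are those of the 3 IDR peaks on chromosome 4 that held GAGAG within 100 bp of the summit. The next is an IDR peak with a CACACA match and no GAGAG, and the last an IDR promoter peak with neither. All are from the RefSeq dm6 assembly.
zfh2 upstream (chr4:497780-497980, plus strand): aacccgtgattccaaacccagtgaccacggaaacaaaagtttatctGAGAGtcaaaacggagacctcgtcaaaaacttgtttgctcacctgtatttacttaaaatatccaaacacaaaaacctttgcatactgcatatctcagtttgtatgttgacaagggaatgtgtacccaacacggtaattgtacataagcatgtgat
PlexA promoter (chr4:1027172-1027372, plus strand): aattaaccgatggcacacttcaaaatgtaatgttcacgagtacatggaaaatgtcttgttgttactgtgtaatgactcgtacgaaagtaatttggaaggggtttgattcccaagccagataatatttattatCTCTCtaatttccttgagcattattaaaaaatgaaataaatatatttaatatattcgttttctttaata
pan promoter (chr4:70136-70336, plus strand): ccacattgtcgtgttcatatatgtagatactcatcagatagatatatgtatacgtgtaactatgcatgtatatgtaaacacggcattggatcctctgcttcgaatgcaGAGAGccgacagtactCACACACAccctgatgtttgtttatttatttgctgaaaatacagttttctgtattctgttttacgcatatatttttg
lncRNA:CR43437 upstream (chr4:424736-424902, plus strand): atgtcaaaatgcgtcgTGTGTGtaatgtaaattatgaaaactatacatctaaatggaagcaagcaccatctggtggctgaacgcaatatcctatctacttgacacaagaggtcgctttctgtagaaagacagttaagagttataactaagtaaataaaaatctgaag
gw promoter (chr4:660006-660206, plus strand): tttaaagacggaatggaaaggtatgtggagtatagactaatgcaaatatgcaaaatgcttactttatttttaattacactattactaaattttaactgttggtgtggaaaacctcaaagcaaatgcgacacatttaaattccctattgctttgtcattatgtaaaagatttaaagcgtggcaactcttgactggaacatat
The zfh2 match lies 54 bases before the summit and the PlexA match 32 bases after it. The pan match lies 8 bases after the summit, beside a CACACACA run.

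Chromosome 4 held more peaks than its length share, but few strong ones. The 473 peaks were 1.58% (1.44% to 1.72%) of the pooled list, 1.57 times the chromosome's share of sequence. Their density was 351 per Mb, against 207 to 243 per Mb on the other arms. Together they covered 14.6% of the chromosome, against 8.36% to 9.87% elsewhere. The deposited score that orders each list is the peak caller's own statistic, on a scale that differs between lists, so peaks are compared by rank within a list. Among the 1000 highest-scoring pooled peaks 3 lay on chromosome 4, or 0.30% (0.102% to 0.878%). The chromosome held 4 of the 2001 peaks at ranks 3000 to 5000, or 0.20% (0.0778% to 0.513%). It then held 63 of the 5000 peaks at ranks 5001 to 10000, or 1.26% (0.986% to 1.61%), and 102 of the next 5000, or 2.04% (1.68% to 2.47%). From there to the end of the list the share stayed between 1.84% and 2.10%.

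**Figure D1:**
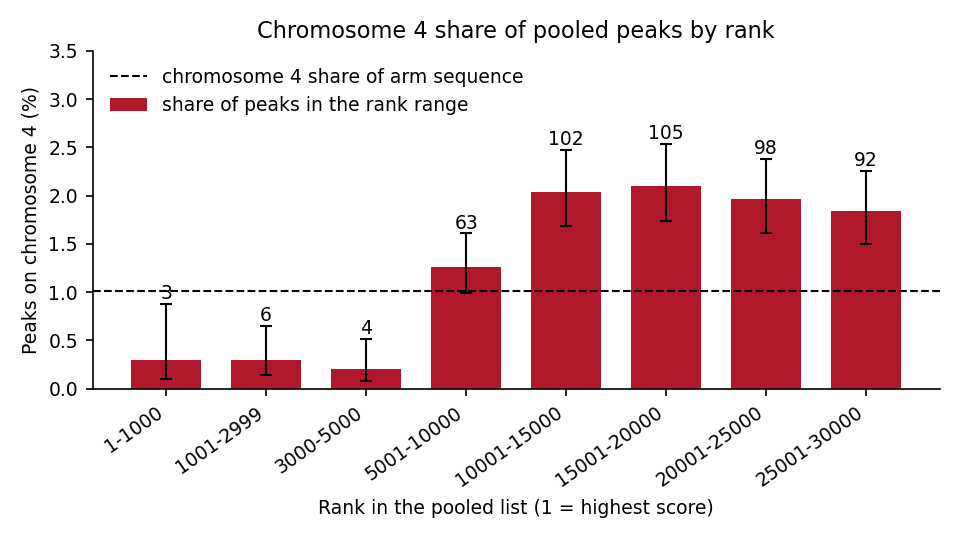
Share of pooled-list peaks that lie on chromosome 4 (vertical axis, percent) in 8 successive ranges of rank (horizontal axis), with 95% Wilson intervals as error bars and the number of chromosome 4 peaks above each bar. The dashed line is the chromosome's share of arm sequence, 1.01%; the bars for ranks up to 5000 lie at 0.30% or below and those from rank 10001 on at 1.84% or above.

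Both replicates showed this order. The strongest 2999 peaks held 9 on chromosome 4 in the pooled list, 9 in the list of replicate 3 and 9 in that of replicate 4. The strongest 10000 held 76, 76 and 95, and the complete lists of 30000 held 473, 422 and 515. The median rank of the chromosome 4 peaks was 18228 (quartiles 11968 and 23695), against 14942 on the other arms. Their median score was 24.4 and their highest 197.6. Read against the list as a whole, 9 of the 473 chromosome 4 peaks, 1.90%, were IDR peaks, where the background over all arms was 10.0%. With a deposited q of at most 0.05 there were 34, against 24.5% of all pooled peaks. The pooled list is the authors' list of peaks and background, so most of the chromosome 4 peaks are ones that neither threshold kept.

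A gap in score separated the 9 IDR peaks from the other 464. The weakest of the 9, at 79.0 and pooled rank 2603, was followed by a peak of score 59.3 at rank 4113. Over all arms the IDR list ended at a score of 72.5, and no chromosome 4 peak lay between ranks 2603 and 4113. Each of the 9 had a peak in both replicate lists, and the 2 replicate summits were a median of 7 bp and at most 156 bp apart. Of the IDR peaks on the other arms, 99.8% had a peak in both lists, with a median summit gap of 31 bp. The IDR list is chosen for repetition between replicates, so presence in both lists says nothing particular to chromosome 4.

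Of the 9 IDR peaks, 4 lay away from promoters, and they included the 3 strongest. A promoter here is any position within 500 bp of an annotated transcription start site (TSS). The strongest, chr4:1113301-1113444, lay in a 3′ UTR of Cals, which encodes the synaptic cadherin-family protein calsyntenin, 9610 bp downstream of its nearest TSS. Its score was 197.6 at rank 484 in the pooled list, 92.4 at rank 502 in replicate 3 and 101.3 at rank 547 in replicate 4. It was the strongest chromosome 4 peak in all 3 lists, and at 144 bp the narrowest, where 471 of the 473 peaks were 440 bp wide.

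The peak at chr4:497660-498099, the zfh2 sequence printed above, was intergenic, 3930 bp upstream of zfh2, a zinc-finger homeodomain transcription factor. It scored 177.7 at rank 615 in the pooled list, 91.2 at rank 522 in replicate 3 and 80.1 at rank 859 in replicate 4. The third, chr4:424736-424902, was also intergenic, 1245 bp upstream of the long noncoding RNA lncRNA:CR43437. The nearest protein-coding TSS, that of lgs (legless, a cofactor of Wingless signalling), was 19089 bp away. It scored 150.2 at pooled rank 808, 78.5 at rank 697 in replicate 3 and 70.1 at rank 1096 in replicate 4. The fourth, chr4:982677-983116, lay 4408 bp upstream of fuss, a cofactor of the Ski and Sno family, and ranked 2603, 3489 and 2407 in the pooled, replicate 3 and replicate 4 lists. Zfh2 and lncRNA:CR43437 ranked higher in replicate 3, and fuss in replicate 4.

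The other 5 IDR peaks were at promoters, and all 5 summits lay upstream of the nearest TSS. For gw, Sox102F and pan that TSS is an internal one, so these summits lie inside the gene. The summit at chr4:659886-660325 was 123 bp upstream of an internal TSS of gw (gawky), a GW182 protein of microRNA silencing. It had a pooled score of 132.1 at rank 1036 and ranks 1250 and 1053 in replicates 3 and 4. The summit at chr4:807391-807830 was 264 bp upstream of an internal TSS of Sox102F, an HMG-box transcription factor. It had a pooled score of 119.5 at rank 1259 and ranks 1363 and 1286 in the replicates. The peak at chr4:1027052-1027491 lay 171 bp upstream of PlexA, a semaphorin receptor of axon guidance, also with 119.5, at rank 1260 and at ranks 1444 and 1361. These 3 differed little between the replicates.

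The remaining pair ranked higher in replicate 4 than in replicate 3. RpS3A encodes a protein of the small ribosomal subunit, and its peak, chr4:67084-67523, had its summit 97 bp upstream of the TSS, a pooled score of 102.0 at rank 1663 and ranks 2324 and 1432 in replicates 3 and 4. The peak at chr4:70016-70455 lay inside pan (pangolin, the TCF factor of Wingless signalling), 169 bp upstream of an internal TSS. It had 95.9 at rank 1869 and ranks 2411 and 1652.

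Peaks 10 to 20 on the chromosome had scores of 46.8 to 59.3 and were found in both replicates, with ranks that for several of them lay far apart. The tenth, chr4:557024-557463, had its summit in an exon of lncRNA:CR43958, inside the gene Tdg (a thymine DNA glycosylase) but outside the exons of Tdg. It scored 59.3 and ranked 5568 in replicate 3 and 4331 in replicate 4. The peak 142 bp downstream of the TSS of myo (myoglianin, a TGF-beta family ligand) scored 58.6, with ranks 7542 and 3867. The peak 24 bp downstream of an internal TSS of ATPsynbeta, a subunit of mitochondrial ATP synthase, scored 53.4, with ranks 5034 and 9597.

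The peak 626 bp upstream of Asator, a tau-tubulin kinase family gene, scored 52.9 and ranked 2594 in replicate 3 but 13397 in replicate 4. A second fuss peak, 1771 bp upstream, scored 51.9 and ranked 7191 and 6492. The peak 19 bp downstream of an internal TSS of Mitf, a bHLH-zipper factor of lysosomal genes, scored 51.7 and ranked 4027 and 5539. Of these 3, Asator was the one whose replicate ranks lay on either side of the length of the IDR list.

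The peak 708 bp upstream of ey (eyeless, the Pax6 factor of eye development) scored 47.5 and ranked 6083 and 6647. The peak 13 bp upstream of an internal TSS of CaMKII, the calcium-calmodulin kinase of synapses, scored 46.9 and ranked 7749 and 7980. The peak 130 bp upstream of CG46466 scored 46.8 and ranked 5350 and 14814. The last of these was again stronger in replicate 3.

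Another pair of the 20 lay inside copies of the transposon INE-1. One, in a 3′ UTR of Cals 8048 bp from its nearest TSS, scored 50.2 and ranked 4058 in replicate 3 and 15774 in replicate 4. The other, 1053 bp upstream of the forkhead gene fd102C, scored 47.4 and ranked 19526 and 5232. No label or file says what was done with reads that match more than 1 copy.

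**Figure D2:**
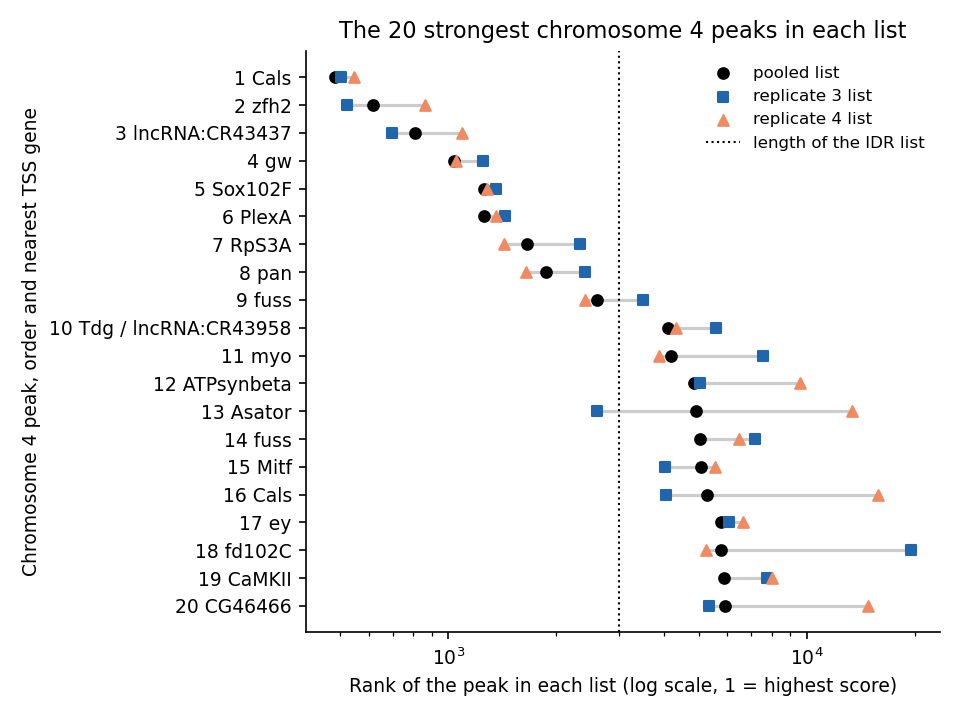
Rank (horizontal log axis, 1 is the highest score) of the 20 highest-scoring chromosome 4 peaks in the pooled list (circles), the replicate 3 list (squares) and the replicate 4 list (triangles), each row named by the gene of the nearest TSS. The dotted line marks the length of the IDR list, 2999; the first 8 peaks lie left of it in all 3 lists, while Asator spans 2594 to 13397 and fd102C 5232 to 19526.

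The weaker peaks repeated less often. On chromosome 4, 49.0% (44.6% to 53.5%) of pooled peaks were overlapped in both replicate lists, below the background of 57.8% over all arms. A further 88 were overlapped in replicate 3 alone, 134 in replicate 4 alone and 19 in neither. The share fell with rank as on the other arms. At ranks 3000 to 10000 it was 92.5% on chromosome 4 and 92.9% elsewhere, at ranks 10001 to 20000 it was 57.0% and 55.4%, and at ranks 20001 to 30000 it was 22.6% and 22.8%. At matched rank the chromosome 4 peaks were therefore found in both replicates about as often as the rest. Where both replicates had a peak, their summits were a median of 133 bp apart on chromosome 4 and 71 bp on the other arms, where more of these peaks are strong. At ranks 3000 to 10000 the medians were 71.5 bp and 60 bp, at ranks 10001 to 20000 they were 135.5 bp and 113 bp, and at ranks 20001 to 30000 they were 259 bp and 189 bp. Across the 223 such peaks outside the IDR list, Spearman's rho between the replicate scores was 0.245, against 0.50 across 14109 peaks of the other arms. The rho values are not matched for rank, and the part of rank in their difference was not tested. All pooled peaks outside the IDR list had a median rank of 18370.5 on chromosome 4 and 16467 elsewhere. These are descriptions across peaks of the same libraries.

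Peaks were spread along the chromosome. Up to position 1200000 each 100 kb held 28 to 55 summits, the next 100 kb held 16, and the last 48131 bp, 95.4% of them annotated as transposon, held 0. The longest gap between summits, 37190 bp, ran from position 4413 to 41603. Neighbouring summits were a median of 1711 bp apart, and 112 summits lay within 500 bp of another. Merging overlapping peaks gave 416 intervals, of which 361 held 1 peak, 53 held 2 and 2 held 3. The intervals of 3 peaks were chr4:328293-329294 at PMCA and Rnf11 and chr4:866606-867651 at Gyf, with highest scores of 31.3 and 25.3.

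Fewer chromosome 4 summits than usual were at promoters. They numbered 96, or 20.3% (16.9% to 24.2%), against a background of 31.0% over all arms and 31.2% on the other arms. Promoter windows also make up less of this chromosome, 10.7% against 13.6%, so the summit share was 1.89 times the sequence share here and 2.30 times elsewhere. The gap was widest at ranks 10001 to 20000, with 15.5% (11.2% to 21%) on chromosome 4 and 26.8% elsewhere. At ranks 20001 to 30000 the shares were 18.4% (13.6% to 24.5%) and 20.4%. Among IDR peaks, 5 of 9 were at promoters, too few to set apart from the share elsewhere. Promoter summits lay upstream of the nearest TSS in 61.5% of cases on chromosome 4 and 61.1% elsewhere.

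Summits in coding exons were more frequent. They numbered 71, or 15.0% (12.1% to 18.5%), against 5.19% (4.94% to 5.45%) on the other arms, where coding exons make up 13.8% of sequence against 18.9% here. The share was 0.793 times the sequence share on chromosome 4 and 0.375 times elsewhere. On both sides the share of summits in coding exons rose toward weaker ranks. At ranks 3000 to 10000 it was 7.46% on chromosome 4 and 1.28% elsewhere. At ranks 10001 to 20000 it was 15.5% and 5.89%, and at ranks 20001 to 30000 it was 17.9% and 8.76%. The chromosome 4 intervals began at 3.23%, 11.2% and 13.1%. The 15.0% and 5.19% are therefore not matched for rank, but a gap remained in each of these ranges. All 71 were weak. None was in the IDR list, 21 were overlapped in both replicates, and the strongest, at Rad23, a nucleotide excision repair gene, scored 38.5 at rank 8007. They lay in 41 genes. Named after their counts were seen, CG33978 and pan held 5 each, and bt (the muscle protein projectin), unc-13 (synaptic vesicle priming) and apolpp (the lipoprotein apolipophorin) held 4 each. Overlapped in both replicates were 1 each at CG33978, bt and apolpp, and 0 at pan and unc-13. Coding length was 26.9 kb at bt, 14.6 kb at unc-13, 12.6 kb at CG33978, 10.1 kb at apolpp and 4.87 kb at pan. The median GC content within 100 bp of the summit was 37.3% for the coding exon summits and 33.3% for the other chromosome 4 summits, and its part in the result was not tested. Summits in 3′ UTRs were 7.61% on chromosome 4 and 3.98% elsewhere, on 7.19% and 4.40% of sequence. Intron and intergenic shares were 40.2% and 14.6% on chromosome 4, and 40.8% and 16.8% elsewhere.

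**Figure D3:**
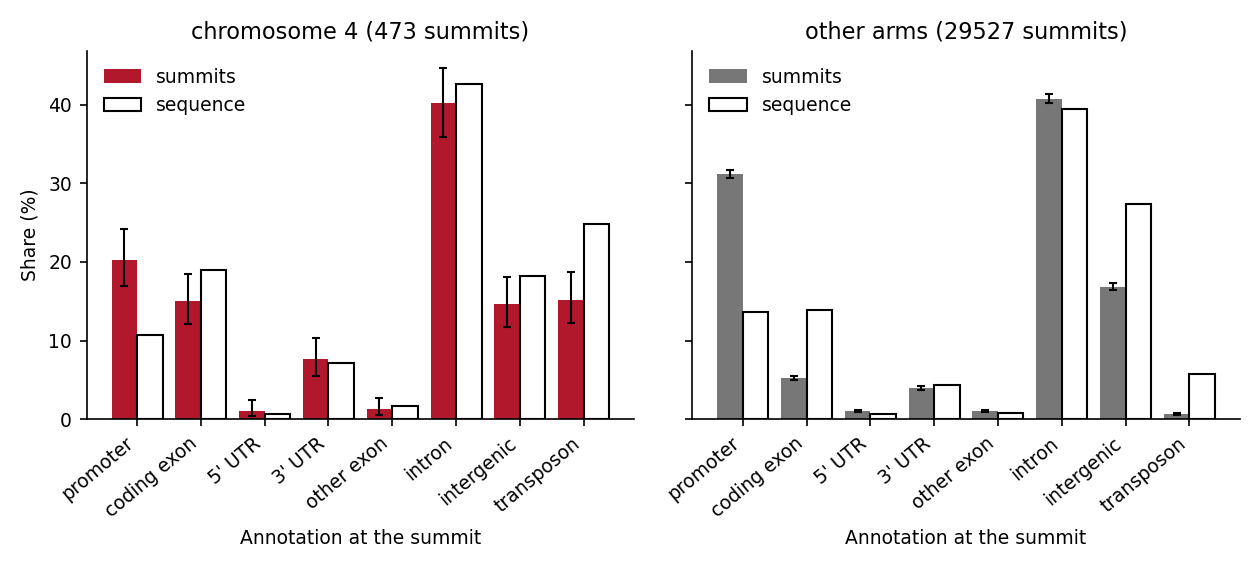
Share of pooled summits (filled bars, percent, 95% Wilson intervals) and of arm sequence (open bars) in each annotation class for chromosome 4 (left, 473 summits) and the other arms (right, 29527 summits). The transposon class overlaps the other classes; coding exons hold 15.0% of chromosome 4 summits and 5.19% of the others, and transposons 15.2% and 0.643%.

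Summits in transposons were also more frequent than elsewhere. On chromosome 4 they numbered 72, or 15.2% (12.3% to 18.7%), against 0.643% (0.558% to 0.741%) on the other arms. The transposon share of sequence was 24.8% and 5.74%, so the summit share was 0.614 times the sequence share on chromosome 4 and 0.112 times elsewhere. INE-1, a short and old non-autonomous element with 344 annotated copies here, held 48 of the 72. Those were 10.1% (7.74% to 13.2%) of the summits on 7.22% of the sequence, a ratio of 1.41, where INE-1 on the other arms had a ratio of 1.00. The other transposons had ratios of 0.289 and 0.0558. Sequence outside transposons also held more summits than its share, with ratios of 1.13 on chromosome 4 and 1.05 elsewhere. Of the 48 INE-1 summits 24 were overlapped in both replicates, about the share of all chromosome 4 peaks, and none was in the IDR list. The element 1360, with 60 copies on 3.79% of the sequence, held 8. The telomere-type elements HeT-A and TART-A, named after their counts were seen, held 0. The 77056 bp beyond the last summit of the chromosome, 95.7% transposon, are counted in its transposon share of sequence. With transposon sequence and summits left out, an alternative chosen after seeing the data, the density was 395 per Mb on chromosome 4 and 235 per Mb on the other arms.

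Most genes of the chromosome had a peak near a TSS, and few of these peaks were strong. Of the 80 protein-coding genes, 71, or 88.8% (80% to 94%), had a pooled summit within 1000 bp of a TSS, against 59.8% of the 13945 genes on all arms. With IDR summits the order turned: 5 genes, 6.25% (2.70% to 13.8%), against 16.2%. Those 5 were gw, Sox102F, PlexA, RpS3A and pan. A summit lay inside 70 of the 80 genes, against 41.4% of genes on the other arms. The genes of chromosome 4 are longer, with a median of 10.1 kb against 2.16 kb. Its summits are also denser, 351 per Mb against 207 to 243. The part of gene length or summit density in the shares of genes with a summit near a TSS or inside was not tested. CG31998 was the 1 gene of the 80 that had no summit at a TSS or inside it. Chosen after their counts were seen, the genes with most summits inside were pan with 19 over 44.9 kb and Sox102F with 17 over 34 kb, followed by PMCA, unc-13 and bt with 13 each.

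The genes were also read by role, in 5 lists of known chromosome 4 genes. Of 15 transcription factors and cofactors, 13 had a summit at a TSS and 2 an IDR summit, and the best peaks were those of Sox102F (119.5), pan (95.9) and Mitf (51.7). The exceptions, dati and fd102C, had summits inside the gene but none within 1000 bp of a TSS. Of 12 signalling and guidance genes, 11 had a summit at a TSS and 1 an IDR summit, led by PlexA (119.5), myo (58.6) and Asator (52.9). Of 9 genes listed as housekeeping, 8 had a summit at a TSS and 2 an IDR summit, with gw (132.1), RpS3A (102.0) and Tdg (59.3) at the top. That label is loose, since the list includes apolpp and Gat. Gat was the member without a summit at a TSS.

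Of 9 synapse and neuron genes, 7 had a summit at a TSS and 0 an IDR summit there. Their best scores were 59.3 at Pur-alpha, a nucleic-acid-binding protein gene that shares the tenth peak with Tdg, 46.9 at CaMKII and 46.8 at Slip1, which lies within 1000 bp of the CG46466 peak. All 4 muscle and cytoskeleton genes had a summit at a TSS and none an IDR summit. Zyx (zyxin), Kif3C (a kinesin) and Ank (ankyrin) scored 38.5, 38.0 and 31.7. The Zyx peak lies in an INE-1 copy, nearest a TSS of apolpp, and is also the best peak of apolpp in the housekeeping list. The Kif3C peak is nearest a TSS of CG32017, and the Ank peak lies in a copy of the transposon S2. The median rank of the best peak per gene was 5934 for housekeeping, 6908 for transcription factors, 8509.5 for signalling, 9733.5 for muscle and 11455 for synapse genes. Cals, whose protein is synaptic, was not in the synapse list, so its IDR peak at rank 484 inside the gene does not enter that median. The lists are small, and nothing particular to a list can be read from these counts beside the 71 of all 80 genes with a summit at a TSS.

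**Figure D4:**
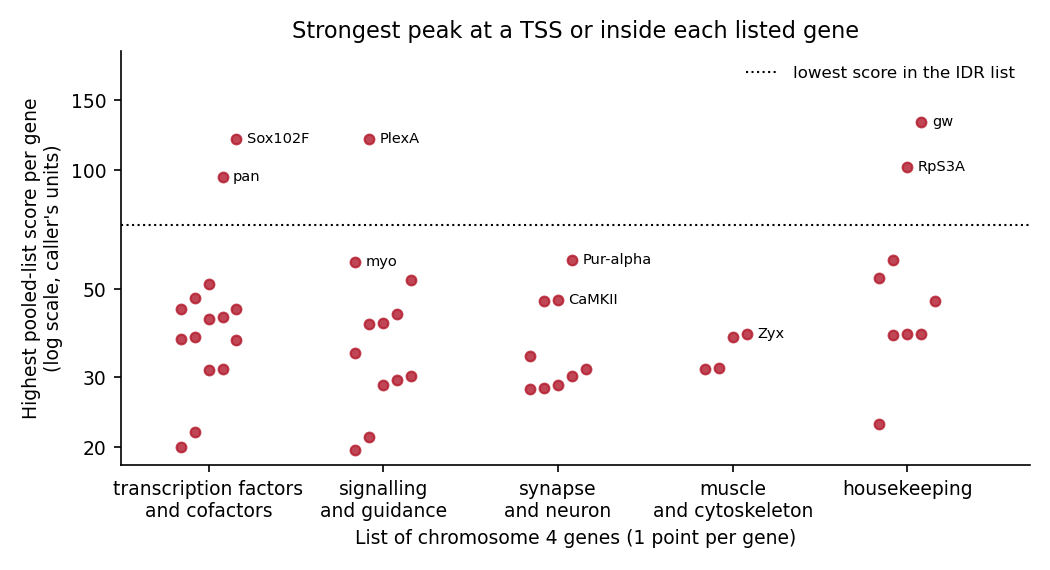
Highest pooled-list score (vertical log axis, the caller's units) at a TSS within 1000 bp or inside each gene, 1 point per gene, for 5 lists of chromosome 4 genes. The dotted line is the lowest IDR score, 72.5; gw, Sox102F, PlexA, RpS3A and pan lie above it and all other listed genes at 59.3 or below.

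GAGAG, the repeat core known for Psq, was about as frequent at chromosome 4 summits as beside them. It occurred on either strand within 100 bp of 82 of the 473 summits, 17.3% (14.2% to 21%), against 24.4% of all pooled summits. In windows of the same 201 bp centred 1000 bp to the left and right of the summits the shares were 19.2% and 15.6%. Of all 201 bp windows of chromosome 4, 17.1% held GAGAG, against 21.2% to 22.1% on the other arms. On the other arms outside the IDR list the summit share was 23.5% and the flank shares 22.0% and 22.4%. Among the 9 IDR peaks 3 held GAGAG (12.1% to 64.6%), those of the zfh2, PlexA and pan sequences printed above. On the other arms 33.1% of IDR summits held it, with flank shares of 23.6% and 23.8%. GAGAGAG, which contains GAGAG, was at 9 chromosome 4 summits, 1.90%, against 4.51% of all pooled summits. Of the chromosome's windows 1.74% held it, against 2.21% to 2.94% on the other arms. CACACA was at 12.1% of chromosome 4 summits, against 18.9% of all pooled summits. It was in 8.46% and 11.4% of the chromosome 4 flanks and in 9.50% of its windows, against 14.4% to 17.1% of windows on the other arms.

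The sequence TATCGATA, the DNA replication-related element (DRE) known from promoters of housekeeping genes, was searched in the same way. It was at 21 chromosome 4 summits, 4.44%, against 1.93% of summits on the other arms. The whole chromosome is rich in it, with 98.7 matches per Mb against 24.8 to 39.2, and 1.95% of its windows held a match against 0.467% to 0.704%. On the other arms outside the IDR list the share stood out at the summit, 1.80% (1.64% to 1.96%) against 0.720% and 0.588% at 400 bp to the left and right. On chromosome 4 it was 4.53% (2.98% to 6.82%) at the summit, and 4.32% and 1.94% at 400 bp to the left and right. Over the 20 windows away from the summit, out to 2000 bp on either side, the chromosome 4 share had a median of 1.94% and a range of 1.29% to 4.32%. Of these, 16 lay below the interval of the summit share. The other arms had a median of 0.609% and a highest of 1.10%, and all 20 lay below.

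**Figure D5:**
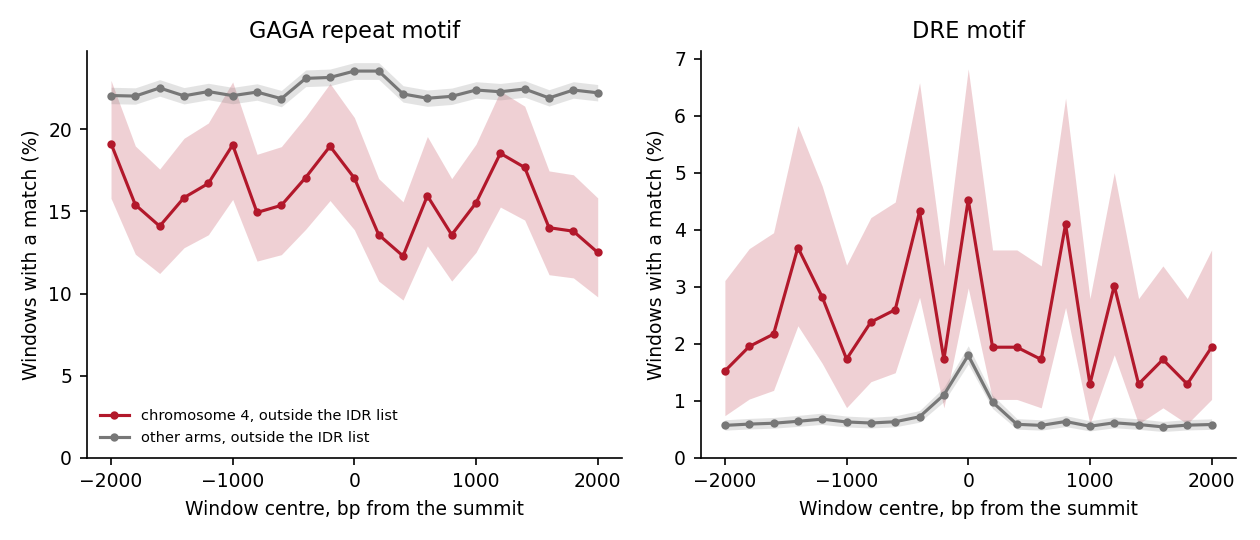
Share of 201 bp windows with a match (vertical axes, percent) by distance of the window centre from the summit (horizontal axes, bp) for GAGAG (left) and the DRE (right), at pooled peaks outside the IDR list on chromosome 4 (464 summits) and the other arms (26537 summits), with 95% Wilson intervals shaded. At the summit the DRE share is 4.53% on chromosome 4 and 1.80% elsewhere, against medians of 1.94% and 0.609% over the 20 windows away from it; on chromosome 4 the highest of those windows reaches 4.32%.

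The DRE matches of chromosome 4 lay mostly away from promoters. On the other arms 5.22% of promoter summits and 0.438% of other summits held one, while on chromosome 4 the shares were 4.17% (4 of 96) and 4.51% (17 of 377; 2.83% to 7.10%). At ranks 20001 to 30000 the share was 5.79% (3.26% to 10.1%) on chromosome 4 and 1.03% on the other arms, and at ranks 10001 to 20000 it was 4.35% (2.30% to 8.06%) and 1.43%. At ranks 3000 to 10000 it was 1.49% (0.264% to 7.98%) and 3.40%, and in the IDR list 0 of 9 (up to 29.9%) and 3.11%, so among the stronger peaks the intervals of chromosome 4 include the shares elsewhere. Of all 133 matches on chromosome 4, 48.1% lay in INE-1, against 7.41% on the other arms. Of the 21 summits, 13 had their match in INE-1 and 8 outside transposons, and 13 of the 21 were overlapped in both replicates.

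The bases around these matches show the repeat. Below are 3 of the INE-1 windows, read on the strand of the element, and the strongest window outside a transposon that lies at a promoter, that of MED26, a Mediator subunit. They were chosen after their values were seen, to show the shared sequence around the match, and capitals mark TATCGATA.
INE-1 near Sox102F (chr4:822775-822822, minus strand): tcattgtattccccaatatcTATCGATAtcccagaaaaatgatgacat
INE-1 in onecut (chr4:604678-604725, minus strand): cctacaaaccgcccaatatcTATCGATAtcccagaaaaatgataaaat
INE-1 in Kif3C (chr4:1148165-1148212, minus strand): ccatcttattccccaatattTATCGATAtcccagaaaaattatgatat
MED26 promoter, no transposon (chr4:787626-787673, plus strand): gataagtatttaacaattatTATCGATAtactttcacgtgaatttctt
The peaks of the 4 windows had pooled scores of 29.2, 24.4, 22.2 and 32.0. Over the 40 bases around the match, the 78 pairs of the 13 INE-1 windows had a median identity of 62.5% (range 30% to 90%), taking the better of both orientations. The 28 pairs of the 8 other windows had a median of 31.25% (22.5% to 45.0%). Among those 8, a window near bt had a median identity of 55.0% to the INE-1 windows and one in Sox102F 52.5%, although neither is annotated as INE-1, and the rest had 27.5% to 37.5%.

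The other motifs were rare at the summits. GGTCACACT, the core of the promoter motif bound by M1BP, was at 0 of the 473 summits and in 0.0745% of chromosome 4 windows. On the other arms it was at 1.01% of summits and in 0.168% to 0.248% of windows. Among promoter summits it was at 0 of 96 on chromosome 4, with an interval up to 3.85% that includes the 2.96% of the other arms. CAGGTAG, bound by the early embryonic factor Zelda, was at 5 chromosome 4 summits, 1.06%, against 1.11% of all pooled summits. Of the chromosome's windows 1.19% held it, and 1 of the 5 summits was the Cals peak, the strongest of the chromosome.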

How the data were processed

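Sequencing of anti-GFP chromatin immunoprecipitates was done by the authors on 2 replicates, with sonication to 200 to 800 bp per the labels, whose description names an anti-GFP antibody and whose antibody field names psq. Per the deposited text files, peaks and background were called by the authors on each replicate and on both pooled, against a control alignment, and an IDR list was derived from these lists. The control was not analysed here, and no label or file names the aligner, caller or IDR threshold. The authors' deposited score orders the peaks of a list. The deposited −log10 q is capped, at 3.87 in the pooled list. Lists exist on dm6 and dm3, and coordinates are dm6, 1-based. No columns of other samples were found.

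Summits were placed from the deposited offsets. Ensembl release 115 gene models, without transposons, gave TSSs and classes, with a summit in several classes counted as promoter first and then as coding exon, UTR, other exon, intron or intergenic. Its transposon models gave the repeat overlap. Sequence was RefSeq dm6. The 6 motifs were exact patterns on both strands. Python 3.11.15, pandas 2.3.3, numpy 2.4.6, statsmodels 0.14.6 and matplotlib 3.10.9 were used, and the counting was tested on simulated data. Named genes were those nearest the IDR peaks and the 20 strongest peaks, each replicate's strongest peak, and up to 3 best-scoring members of each list. The members and lists were chosen with earlier results of these data known. Older symbols in the lists were matched through the RefSeq gene table: Arf102F is Arf4, Thd1 is Tdg, and bip2 and Rfabg are Taf3 and apolpp, which were already listed and are counted once. GluRA had no exact match. No test was run, since there was 1 group. Alternatives were dm3, other overlap rules, windows and list depths, merged peaks and single replicates.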

Additional observations from a re-analysis of the deposited data

How the results depend on the processing

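No paired analysis was possible because there was 1 group. The share of pooled peaks on chromosome 4 ranged from 1.41% to 1.72% when either replicate's own list was used, and was 1.35% with summits in transposons left out, an alternative chosen after seeing the data. It was 1.55% on dm3 and 1.65% over merged intervals. The number of IDR peaks on chromosome 4 was 9 on dm3 and with merged intervals, and 9 peaks of each replicate's own strongest 2999 lay there. The share in both replicates was 37.2% with a reciprocal overlap of 50%, 25.2% with replicate summits within 100 bp, and 8.03% within the 10000 strongest peaks of each replicate. The promoter share was 13.7% within 250 bp and 30.9% within 1000 bp of a TSS, and 18.7% to 19.0% in single replicates. The GAGAG share was 8.03% within 50 bp, 36.8% within 250 bp, 1.90% for GAGAGAG, and 15.7% to 16.8% in single replicates. Window lengths change these shares by construction. The median rank was 17039.5 to 18042 in single replicates. Of 40 ranks of the 20 strongest peaks in single replicates, 22 differed from the pooled rank by more than 1 SD of that peak's 2 replicate ranks, all toward a weaker rank. The 20 were chosen by their pooled rank, which favours weaker ranks in a single replicate, and each SD rests on 2 values. The depth of the libraries is unknown, so no limit from it can be given.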
